A study of Macaca fascicularis with 2 samples.

Results

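The Kelch genes analysed here were the 56 genes whose symbol in the deposited files was KLHL, KBTBD or KLHDC followed by a number, together with KEAP1, out of 28175 genes in all. They comprised 37 KLHL genes, 8 KBTBD genes, 10 KLHDC genes and KEAP1. KLHL40, KLHL41, KLHL31, KLHL30 and KBTBD12 were taken as the 5 muscle members and the other 51 as broad members. RNA came from the gastrocnemius, a calf muscle, of cynomolgus macaques (Macaca fascicularis). The lean group had a chow diet and the non-lean group a high fat diet, and each group was 1 library. No age, sex, genotype or number of animals per library is given in the labels used here. The comparison asks how expression differs between lean and obese skeletal muscle, and with 1 library per group no difference below has a replicate check.

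Most KLHL and KBTBD proteins carry a BTB domain, which binds the scaffold CUL3, and a row of Kelch repeats, which folds into a propeller that holds the substrate. Bound to CUL3 and the RING protein RBX1 they act as the substrate-reading part of a ubiquitin ligase. NEDD8 attached to the cullin switches the ligase on, and the COP9 signalosome takes it off again. Several KLHDC proteins have Kelch repeats but no BTB domain and work with CUL2 or CUL5 instead. In skeletal muscle KLHL40 and KLHL41 are known for holding thin filament proteins stable. Mutations in KLHL40, KLHL41 or KBTBD13 cause nemaline myopathy, a disease of the thin filament.

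The lean library held 15983371 counts and the non-lean library 12732004. Values are estimated read counts summed per gene and CPM, which are counts scaled to a common library size. A log2 ratio divides the non-lean by the lean CPM, so negative values are lower in the non-lean library. Brackets give the 95% Clopper-Pearson interval of that ratio, which covers counting error only. Transcript lengths were not used here, so a CPM value can be compared between libraries for 1 gene but not between genes. A gene counts as tested when its CPM averaged over both libraries reached 1, which 13707 genes did. The skeletal muscle label held in both libraries, since ACTA1 had 1223115 and 804023 counts and CKM 424516 and 250549. All 7 skeletal markers had intervals below 0 (median log2 ratio -0.42), all 6 slow fibre markers had intervals above 0 (0.93), and 5 of 7 fast fibre markers lay below 0 (-0.18). Total-count scaling added 0.14 to every log2 ratio, and 5 of the 7 skeletal markers then lay below 0 and 2 above. Macrophage, fibroblast and adipocyte markers had medians of -1.49, -1.79 and -2.64. Of the 4 tested adipocyte markers 3 lay below 0, while FABP4, a fatty acid carrier, lay above it at 0.26 [0.05, 0.47].

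The 5 muscle members were all lower in the non-lean library, by 1.35-fold to 2.10-fold. KLHL40, which stabilises the thin filament proteins nebulin and LMOD3, had 3196 lean and 1592 non-lean counts. On the scaled level these were 210.02 and 119.0 CPM, a log2 ratio of -0.82 [-0.91, -0.73]. KLHL41, which binds nebulin and the scaffold protein NRAP, had 28151 lean and 17556 non-lean counts. Its scaled values of 1849.9 and 1313 CPM gave a log2 ratio of -0.49 [-0.52, -0.47]. Both nemaline myopathy genes were therefore lower in the non-lean library, KLHL40 further than KLHL41, with intervals that did not overlap. KBTBD12, a muscle-rich member whose substrate is poorly known, had 141.8 lean and 67.6 non-lean CPM, from 2158 and 904 counts. It was the furthest below of the 5, at -1.07 [-1.18, -0.96]. KLHL31, which is needed for normal postnatal muscle growth in mice, had 49.1 and 31.5 CPM from 747 and 421 counts, a log2 ratio of -0.64 [-0.82, -0.47]. KLHL30, another member of muscle, had 58.6 and 43.5 CPM from 892 and 582 counts, and a ratio of -0.43 [-0.58, -0.28]. The plot of values by library shows the non-lean point to the left of the lean point for each of the 5.

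**Figure D1:**
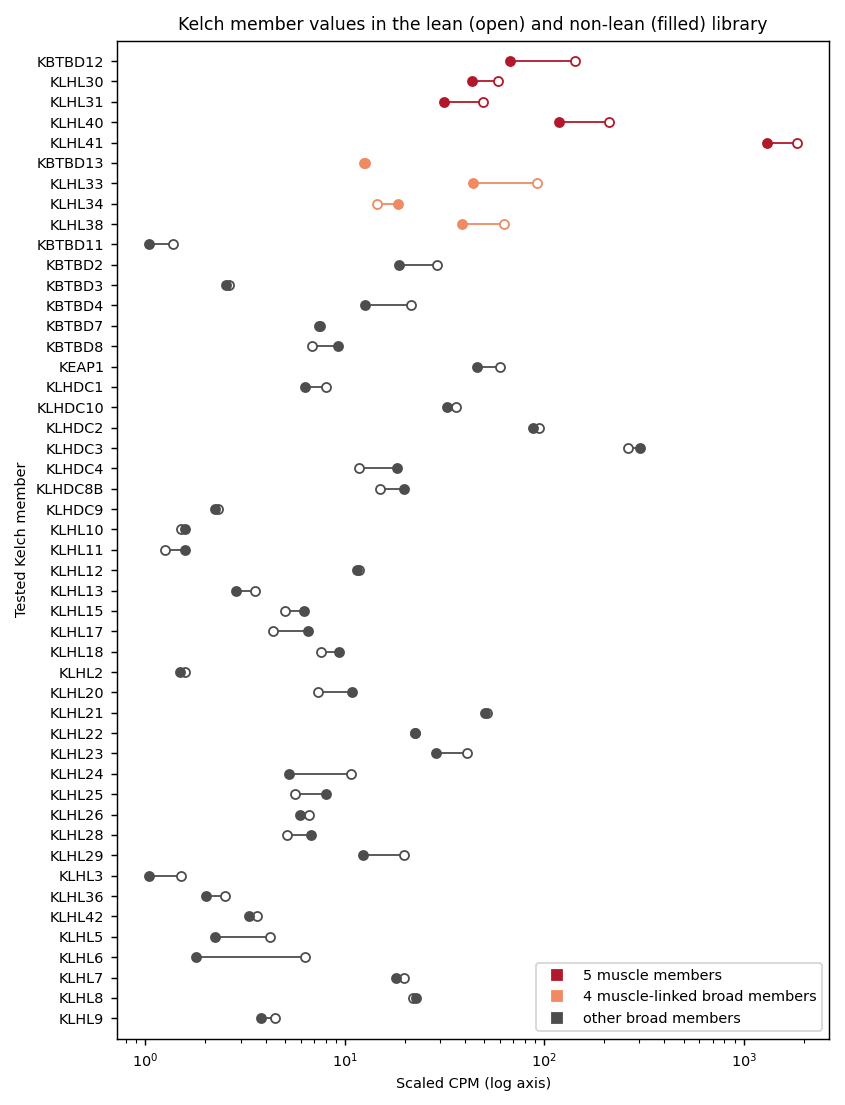
Scaled CPM (log axis) of the 48 tested Kelch members in the lean library (open circles) and the non-lean library (filled circles), 1 library each, joined by a line and grouped by colour. Values are not corrected for transcript length, so positions compare libraries and not genes; all 5 muscle members lie lower in the non-lean library, KLHL41 at 1849.9 and 1313 CPM.

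The median log2 ratio of the 5 muscle members was -0.64, against -0.07 for the 43 tested broad members and -0.01 for all tested genes. Total-count scaling turned the broad median to 0.07 and left the muscle median at -0.50, while the median of all tested genes became 0.13. Intervals lay below 0 for 5 of 5 muscle members and for 10 of 43 broad members, where 28.8% of all tested genes lay below 0. An interval shrinks as counts grow, and every muscle member had at least 1168 counts summed over the libraries. Among the 3340 tested genes with a summed count of at least 1000, 40.9% lay below 0, and among the 7 broad members with that many, 4 did. These 7 had a median log2 ratio of -0.38, nearer to the muscle median, with 6 of the 7 ratios below 0. Among the 7 were KLHL33 at -1.06 and KLHL38 at -0.70, broad members that are also known from striated muscle. The others were KLHL23 at -0.51, KEAP1 at -0.38, KLHDC2 at -0.09, KLHL21 at -0.03 and KLHDC3 at 0.20. The 3340 genes had a median of -0.02. All 5 muscle intervals also lay below 0 with total counts, upper quartile and DESeq2 scaling. The muscle members lay in the lower part of the tested genes, since 23.2% of tested genes had a lower ratio than KLHL30, the highest of the 5, and 6.35% a lower one than KBTBD12.

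The skeletal markers were lower beside these members, while the slow fibre markers were higher. The summed CPM of the 5 muscle members was 2309 in the lean sample against 1574 in the non-lean one, a log2 ratio of the sums of -0.55. KLHL41 alone gave 1849.9 and 1313 CPM of these sums, so that they mostly follow this 1 gene. The summed CPM of the 7 skeletal markers had a log2 ratio of the sums of -0.50, from 190644 to 134600 CPM. ACTA1 alone gave 80376 and 60124 CPM of these. The 6 slow fibre markers went from 9058 to 15847 CPM. The part of fibre content or fibre type in the Kelch values was not tested, and in such bulk samples fewer cells of a type cannot be told apart from less RNA per cell. The muscle members took 69.5% of the lean Kelch counts (69.1 to 69.9, 95% Clopper-Pearson interval) against 62.9% of the non-lean ones (62.4 to 63.4). KLHL41 alone took 55.7% (55.2 to 56.1) and 52.4% (51.9 to 53.0).

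KLHL41 had 2 transcript models in the files, and only 1 of them was lower in the non-lean library. The model with the most reads had an estimated 15279 lean and 16020 non-lean counts, a log2 ratio of 0.25 [0.22, 0.29]. The other model had 12872 and 1536 counts, a ratio of -2.88 [-2.96, -2.80]. The leading model thus held 54.3% of the lean KLHL41 reads against 91.2% of the non-lean ones. A shift of the leading model by at least these 37.0 percentage points was found in 11.7% of 1454 tested genes that had a summed count of at least 1000 and a second model with at least 10% of it, and their median shift was 14.1 points. Reads that both models share are divided by estimation, and the counting interval leaves out the error of that division. By its leading model alone KLHL41 was higher in the non-lean library, so its direction rests on the sum over both models.

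**Figure D2:**
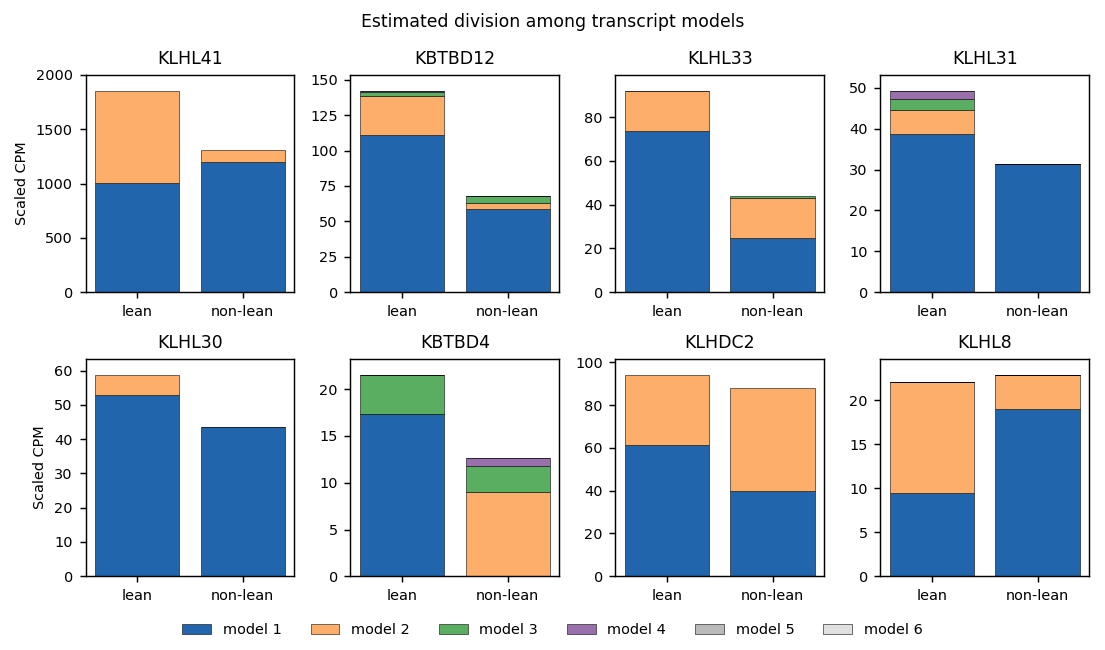
Scaled CPM of each transcript model, stacked within the lean and the non-lean library (1 library each), for 8 Kelch genes chosen after their values were seen; colours rank the models of a gene by summed counts. In KLHL41 the leading model (blue) is at 1004 and 1198 CPM while the other model is at 845.9 and 114.9.

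The other muscle members kept their direction in the leading model, though by smaller ratios in 3 of the 4 and with the same single model in KLHL40. KBTBD12 had a leading model with 1692 and 784 counts, at -0.92 [-1.05, -0.80], and another with 419 and 62 counts, at -2.56 [-2.98, -2.18]. A further model, with 41 and 58 counts, was higher at 0.68, with an interval above 0. KLHL31 was at -0.30 [-0.48, -0.11] in its leading model, which had 588 and 421 counts. Its other models had 91, 39 and 30 lean counts and 0 non-lean counts. KLHL30 was at -0.28 [-0.44, -0.12] in its leading model, with 804 and 582 counts, and its other model had 88 and 0. With total-count scaling the intervals of both these leading models hold 0. The second model of each of the 4 muscle members with several models was thus lower in the non-lean library than the leading one by ratio. How many of all genes with several models have this order was not counted. The leading model of KBTBD12 held 78.4% of its lean reads and 86.8% of its non-lean reads. A shift of at least these 8.38 percentage points was found in 67.0% of the 1454 genes used for KLHL41 above. A count of 0 in the non-lean library allows up to 0.224 CPM by counting alone. For a single model the 0 also rests on the estimated division of shared reads, an error that this floor leaves out.

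Of the 4 broad members also known from striated muscle, KLHL33 and KLHL38 were lower in the non-lean library and KBTBD13 and KLHL34 were not. KLHL33 had 91.9 and 43.9 CPM from 1398 and 587 counts, a log2 ratio of -1.06 [-1.21, -0.93]. Its leading model had 1121 and 333 counts while the next had 277 and 241, so that the difference lay in 1 model. KLHL38 had 62.8 and 38.7 CPM from 956 and 517 counts, a ratio of -0.70 [-0.86, -0.54]. In the reference gene order it lies next to FBXO32, the muscle F-box gene atrogin-1, which had 3609 and 3272 counts and a ratio of 0.05 [-0.02, 0.11]. KBTBD13, the third Kelch gene of nemaline myopathy, had 12.7 and 12.5 CPM from 193 and 167 counts, a ratio of -0.02 [-0.33, 0.28]. Its interval did not overlap those of KLHL40 and KLHL41. KLHL34 was higher, with 221 and 248 counts and a ratio of 0.35 [0.09, 0.62]. It overlaps CNKSR2 in the reference, which had 23 and 83 counts, and without a stated strand the reads of both cannot be told apart. KLHL33 overlaps TEP1, which was higher at 0.18 [0.03, 0.32], opposite to KLHL33. With these 4 genes counted among the muscle members, the muscle median stayed at -0.64 and the broad median at -0.07. Neither could change, since KLHL33 and KLHL38 lie below both medians and KBTBD13 and KLHL34 above both. Intervals below 0 went from 10 of 43 to 8 of 39 broad members, and from 5 of 5 to 7 of 9 muscle members.

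Over all 48 tested members, 4 were at least 2-fold lower with an interval below 0 and none was at least 2-fold higher with an interval above 0. That is 8.33% of the members lower, where 7.16% of all tested genes met the same rule and 4.91% met the rule for higher genes. The 4 were KLHL6, KBTBD12, KLHL33 and KLHL24. With total-count scaling only KLHL6 met this rule, as did 5.33% of tested genes, since KBTBD12, KLHL33 and KLHL24 then fell short of 2-fold. By interval alone, 15 members lay below 0, 8 above and 25 held 0, and 25.7% of all tested genes lay above 0. The plot of ratios sets the muscle members apart at the top by class, and the broad members below them run from -1.79 to 0.64.

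**Figure D3:**
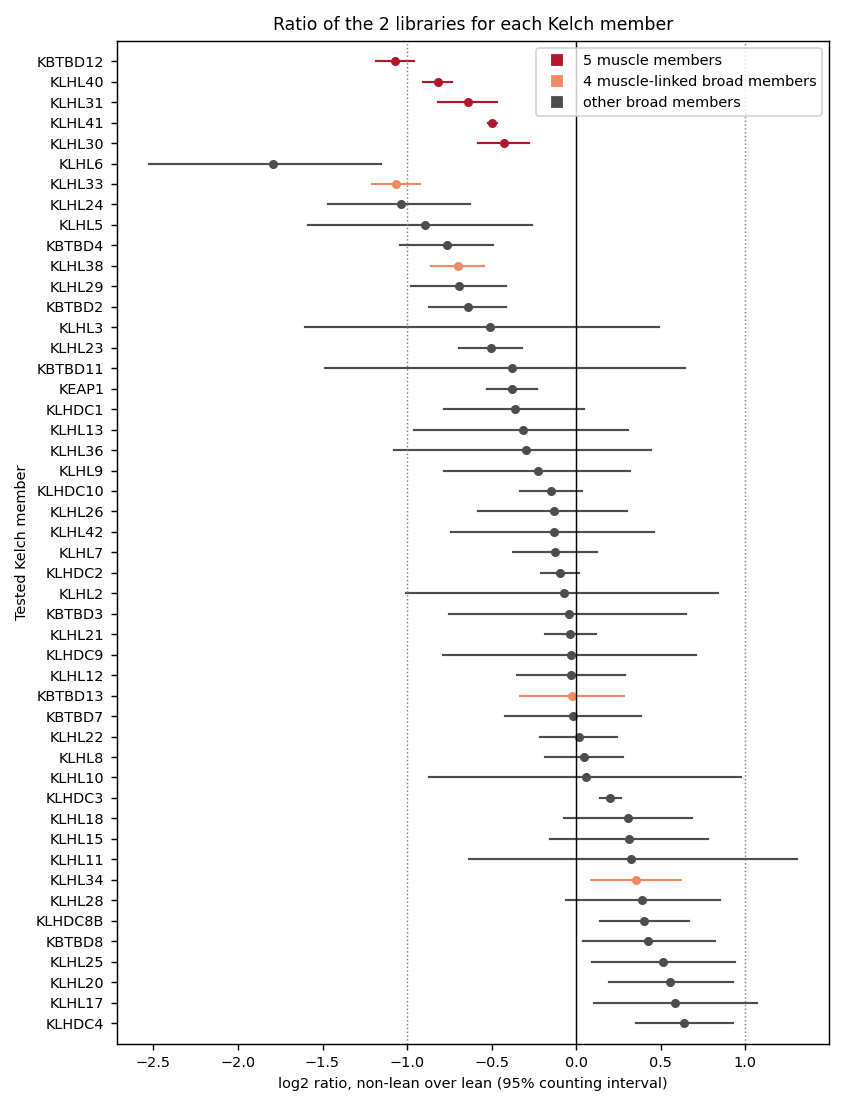
The log2 ratio, non-lean over lean, for the 48 tested Kelch members (points) with 95% counting intervals (lines), the 5 muscle members on top and broad members below in order of ratio; dotted lines mark 2-fold. The muscle members lie between -1.07 and -0.43, and the broad members between -1.79 (KLHL6) and 0.64 (KLHDC4).

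KLHL6, an adaptor known from B lymphocytes, was the lowest member, with 96 lean and 24 non-lean counts. Its 6.31 and 1.79 CPM gave a log2 ratio of -1.79 [-2.52, -1.16], 3.46-fold lower. Immune cell markers were lower beside it. All 8 macrophage markers had ratios below 0, 7 of them with intervals below 0, and their summed level went from 106.3 to 32.3 CPM. The leukocyte gene PTPRC had 29 and 11 counts, and of the B cell genes MS4A1 and CD79A had 0 counts in both libraries while CD79B had 9 and 2. The part of immune cells in the KLHL6 value was not tested. KLHL24, the next gene to KLHL6 in the reference order and known from heritable skin fragility and cardiomyopathy, had 164 and 70 counts and a ratio of -1.04 [-1.47, -0.63]. Desmin, DES, a reported substrate of KLHL24, had 156546 and 129436 counts and a ratio of -0.09 [-0.10, -0.08], which total-count scaling turns above 0.

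Among members tied to metabolic signalling, KBTBD2 was lower in the non-lean library. KBTBD2 marks the PI3-kinase regulatory subunit p85-alpha for breakdown and so bears on insulin signalling. It had 29.0 and 18.6 CPM from 442 and 249 counts, a log2 ratio of -0.64 [-0.87, -0.41]. The gene of that subunit, PIK3R1, was higher, with 262 and 310 counts and a ratio of 0.43 [0.19, 0.67]. KLHL25, which targets the lipogenic enzyme ACLY and the translation repressor 4E-BP1, was higher, with 86 and 108 counts and a ratio of 0.51 [0.09, 0.94]. ACLY had 327 and 170 counts and a ratio of -0.76 [-1.03, -0.49], and EIF4EBP1, the gene of 4E-BP1, had 583 and 1099 counts and one of 1.10 [0.95, 1.25]. These are levels of RNA, and the adaptors act on protein. KLHL22, which targets the mTORC1 brake DEPDC5, had 340 and 302 counts and a ratio of 0.02 [-0.21, 0.24]. KLHL3 and KLHL2, which target WNK kinases, had 23 and 14 counts and 24 and 20 counts. WNK1 itself had 3114 and 1287 counts and a ratio of -1.09 [-1.18, -0.99].

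KEAP1, the sensor that holds down the antioxidant factor NRF2, was lower in the non-lean library, with 60.0 and 46.1 CPM from 913 and 617 counts. Its log2 ratio was -0.38 [-0.53, -0.23], and 25.8% of tested genes had a lower one. NFE2L2, the gene of NRF2, had 841 and 666 counts and a ratio of -0.15 [-0.30, -0.0018], which holds 0 with total-count scaling. Of 19 tested NRF2 target genes, 5 had intervals above 0, 3 below and 11 held 0, with a median of -0.03. Total-count scaling put 9 above 0 and 2 below, with a median of 0.11, against 0.13 for all tested genes. HMOX1 (haem oxygenase) and OSGIN1 were highest, HMOX1 with 67 and 126 counts at 1.09 [0.66, 1.55] and OSGIN1 at 0.65 [0.36, 0.94]. The pentose phosphate enzyme TKT and the efflux pump ABCC1 were lowest, at -1.32 [-1.66, -1.01] and -0.75 [-1.04, -0.48]. The classical target NQO1 had a ratio of -0.21 [-0.44, 0.02].

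None of the tested KLHDC genes was lower by its interval. Their median log2 ratio was -0.03, near the -0.01 of all tested genes, though single genes ran from -0.36 to 0.64. Of the 7 tested, 3 had intervals above 0 and 4 held 0, where 25.7% of all tested genes lay above 0. KLHDC2, KLHDC3 and KLHDC10 are CUL2 adaptors that read the C-terminal end of their substrates. KLHDC3 had 4012 and 4055 counts, which scaled to 263.6 and 303.2 CPM, and a ratio of 0.20 [0.14, 0.27]. KLHDC2 had 1430 and 1177 counts and a ratio of -0.09 [-0.21, 0.02], which total-count scaling raised to 0.05. Its 2 transcript models went opposite ways, 1 with 931 and 536 counts and the other with 499 and 641. KLHDC10 had 547 and 434 counts and a ratio of -0.15 [-0.33, 0.04]. KLHDC4 was the highest of all tested members, with 179 and 245 counts at 0.64 [0.36, 0.93], and KLHDC8B was at 0.40 [0.14, 0.67].

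Further members with intervals above 0 were KLHL17, KLHL20 and KBTBD8. KLHL17, an actin-binding adaptor of brain, had 66 and 87 counts and a ratio of 0.58 [0.11, 1.07]. KLHL20, which targets the kinase DAPK1 and the nuclear body protein PML, had 112 and 145 counts and a ratio of 0.56 [0.19, 0.93]. Both of these substrates were lower as RNA, DAPK1 at -0.67 [-1.33, -0.05] and PML at -0.43 [-0.65, -0.21], though the DAPK1 interval holds 0 with total-count scaling. KBTBD8, a regulator of ribosome production in neural crest cells, had 104 and 123 counts and a ratio of 0.43 [0.04, 0.82]. Further members with intervals below 0 were KLHL5, KBTBD4, KLHL29 and KLHL23. KBTBD4, whose mutant forms in medulloblastoma draw in the CoREST complex, had 327 and 169 counts and a ratio of -0.76 [-1.04, -0.49]. Its most read model in the lean library had 264 counts there but 0 in the other, and another had 0 and 120, while another still had 63 and 37. KLHL5 was at -0.89 [-1.58, -0.26], KLHL29 at -0.69 [-0.98, -0.42] and KLHL23 at -0.51 [-0.69, -0.32].

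The adaptors of mitosis and trafficking held 0 in their intervals, except that KLHL18 lay above 0 with total-count scaling. KLHL21, KLHL9 and KLHL13, which direct the kinase Aurora B, had ratios of -0.03, -0.23 and -0.31, and KLHL18, which acts on Aurora A, one of 0.31 [-0.07, 0.68]. AURKA, the gene of Aurora A, had 26 and 54 counts and was the highest tested substrate, at 1.23 [0.54, 1.98]. KLHL12, which acts on the vesicle coat protein SEC31A, had 179 and 154 counts and a ratio of -0.03 [-0.35, 0.29], and SEC31A had one of -0.03 [-0.18, 0.12]. KLHL12 also needs the calcium sensors PEF1 and PDCD6, which were higher at 0.43 [0.13, 0.73] and 0.48 [0.17, 0.80]. The remaining 14 tested members also held 0, from KBTBD11 at -0.38 [-1.49, 0.65] to KLHL28 at 0.39 [-0.06, 0.85], which total-count scaling puts above 0. Among them KLHL15, which targets the phosphatase subunit PPP2R5B, had 76 and 83 counts, and PPP2R5B had a ratio of 0.03 [-0.13, 0.19]. KLHL10, known from the testis, had 23 and 21 counts. KLHL8 had 336 and 305 counts in sum, with 143 and 254 in 1 transcript model and 193 and 51 in the other, so that its models lay on opposite sides of a sum at 0.05 [-0.18, 0.27]. Of the 8 members below the filter, KLHL32 had 18 and 10 counts and the other 7 had at most 5 in either library. KLHL1, a neuronal gene, had 0 counts in both libraries, which allows up to 0.197 lean and 0.224 non-lean CPM.

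The thin filament proteins that KLHL40 and KLHL41 hold stable did not share 1 direction in their RNA. NEB, the gene of nebulin, had 96152 lean and 50632 non-lean counts, a log2 ratio of -0.74 [-0.75, -0.72]. LMOD3, an actin nucleator and the other main partner of KLHL40, had 4561 and 8488 counts and was 2.12-fold higher, at 1.08 [1.03, 1.13]. NRAP had 40289 and 34699 counts and a ratio of -0.03 [-0.05, -0.01], which total-count scaling turns above 0. LMOD3 thus lay opposite to KLHL40, while NEB lay in the same direction as KLHL40. Of 13 tested thin filament genes, 6 had intervals below 0, 6 above and 1 held 0, with a median of 0.04. The lowest were TPM1, a tropomyosin, at -1.11 and NEB, and the highest were LMOD2 at 1.41 and the slow troponin TNNT1 at 1.11.

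The machinery that Kelch adaptors dock onto lay nearer to the median of all tested genes than the muscle members did. CUL3 had 2458 and 2047 counts and a ratio of -0.08 [-0.16, 0.01], and RBX1 had 681 in each library and a ratio of 0.19 [0.03, 0.34]. NEDD8 was the highest of the 9 core genes, with 527 and 808 counts at 0.80 [0.64, 0.96]. The exchange factor CAND1 was the lowest, with 416 and 271 counts at -0.43 [-0.66, -0.21], while CAND2, its muscle-rich relative, was at -0.04 [-0.13, 0.06]. In the core list 3 of 9 intervals lay above 0 and 1 below, with a median of 0.03. With total-count scaling 5 lay above and 1 below, and the median was 0.17, against 0.13 for all tested genes.

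The neddylation genes, which attach NEDD8 or process it, had a median of 0.24. Of their 10 intervals 4 lay above 0 and 1 below, and 9 of the 10 ratios were above 0. NAE1, part of the activating enzyme, was highest at 0.57 [0.34, 0.81], and UBE2F at 0.40 [0.23, 0.57] came next. UBE2M, the conjugating enzyme that serves CUL3, was lowest, with 1024 and 756 counts at -0.25 [-0.39, -0.11], and UBA3 was at 0.07 [-0.11, 0.25]. With total-count scaling 7 of these 10 lay above 0 and 0 below, UBE2M holding 0. The median was then 0.38, against 0.13 for all tested genes. The share of all tested genes with intervals above or below 0 was not computed for total-count scaling, here or for the other lists. COP9 signalosome genes had a median of 0.00, with 3 of 10 intervals above 0 and 1 below. COPS9, listed under an older symbol, was highest at 0.73 [0.63, 0.82] and COPS2 next at 0.39 [0.22, 0.57], and COPS4 was lowest at -0.32 [-0.46, -0.19], followed by COPS7A at -0.09 [-0.19, 0.02]. Total-count scaling put 6 COP9 genes above 0 and 1 below, with a median of 0.14, against 0.13 for all tested genes. CUL2 and CUL5 were at -0.21 [-0.41, -0.01] and -0.06 [-0.17, 0.05], and the CUL2 interval holds 0 with total-count scaling. Of the genes listed with them, ELOC at 0.57 [0.43, 0.71] and RNF7 at 0.28 [0.11, 0.45] were highest. VHL was lowest at -0.76 [-1.42, -0.14], an interval that also holds 0 with total-count scaling. All the substrates and partners together, 32 tested genes, had a median of -0.01, with 12 intervals below 0, 8 above and 12 that held 0. Total-count scaling left 7 of them below 0 and put 15 above, with a median of 0.14, against 0.13 for all tested genes.

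**Figure D4:**
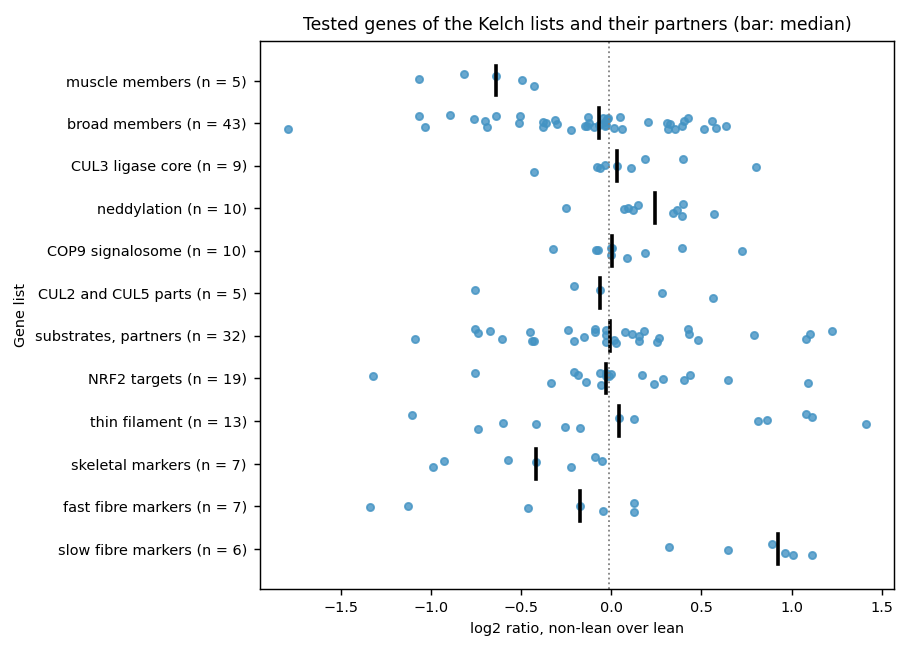
The log2 ratio, non-lean over lean, for each tested gene (points) of the Kelch groups, partner lists and fibre markers, with the median of each list as a black bar; vertical scatter within a list has no meaning and the dotted line is the median of all tested genes (-0.01). The muscle members have a median of -0.64, the CUL3 ligase core 0.03, neddylation genes 0.24 and skeletal markers -0.42.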

How the data were processed

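Total RNA of 1 lean and 1 non-lean gastrocnemius sample was extracted with Trizol, selected on oligo(dT) beads and read on a BGISEQ-500, per the labels' protocols. The deposited values are expected counts, estimated read counts per RefSeq transcript that the authors did not normalise, per the file headers. Per the submitters' processing notes RSEM 1.3.3, STAR 2.7.8a and Trim Galore 0.6.6 were used. For the build, the annotation release and the strand setting nothing is given in the sources used here. Each file had 76183 transcript rows.

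Transcript values were summed per gene symbol and rounded. Of the symbols 24 had become dates and were separated by accession. Partner genes with a placeholder or older symbol were found through a RefSeq gene table (assembly T2T-MFA8v1.1), used only for names and for neighbouring or overlapping genes. By its gene spans 19 of 56 members overlap another gene. Library sizes were scaled with TMM (trimmed mean of M-values, edgeR 4.0.16, R 4.3.3), with factors of 0.952 and 1.05. Ratios used a prior count of 0.5, and intervals the binomial split of the summed count (Python 3.11.15, scipy 1.17.1). These reads carry no molecular identifiers and may hold PCR copies, an error that the intervals and floors leave out. The floor for a count of 0 is 3 counts. As each group is 1 library, the groups were not tested and p-values are absent. The functions were tested on simulated data. Alternatives were total-count, upper quartile and DESeq2 1.42.0 scaling, the prior count, the filter, the leading transcript, the fold and the membership.

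The members and lists were chosen with earlier results of these data known. Named genes are the muscle members, KEAP1, members at least 2-fold apart, and those with most counts or a known role. The 2 highest and 2 lowest of each partner list are also named, and some but not all substrates of named members. MS4A1, CD79A, CD79B, PTPRC, CNKSR2, TEP1 and FBXO32 were added after the values were seen, as was the background of genes with a summed count of at least 1000.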

Additional observations from a re-analysis of the deposited data

How the results depend on the processing

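The number of Kelch members at least 2-fold lower was 4 and became 1 with total counts, because KBTBD12, KLHL33 and KLHL24 then fell short of 2-fold. With a threshold of 1.5-fold it was 11, where 15.4% of tested genes passed, and 1 member was at least 1.5-fold higher, where 11.9% passed. The numbers of intervals below and above 0 and the medians of muscle and broad members stayed within 1.5 times or within their counting error under the other scalings and filters and with the renamed gene KBTBD6 added. The sign of the broad median turned with total counts, to 0.07, as did that of all tested genes, to 0.13. KLHL41 was the 1 member with an interval off 0 whose direction turned, to 0.25 when only its leading transcript was used. Total counts turned the sign of 11 of 48 members, all with intervals that held 0. Scaling by protein length and levels per coding length were not run, since no table of proteins was used here. No paired analysis was possible because each group has 1 library, and for the same reason no library could be left out. Depth limits members such as KLHL2 and KLHL3, whose intervals span more than 1 unit of log2.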

Other observations

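BTB-Kelch genes with other names were read beside the 56 members. IVNS1ABP, which binds actin and a viral protein, had 1737 lean and 1170 non-lean counts, a log2 ratio of -0.38 [-0.49, -0.28]. IPP, an actin-binding Kelch gene, had 130 and 68 counts and a ratio of -0.74 [-1.19, -0.31]. ENC1 had 12 and 10 counts. KBTBD6, which stands under a placeholder symbol in the files, had 132 and 87 counts and a ratio of -0.41 [-0.82, -0.01], which holds 0 with total counts, while its neighbour and close relative KBTBD7 had 114 and 99 counts and one of -0.02 [-0.42, 0.38]. The estimation may divide shared reads of these near copies.

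Other families of ubiquitin ligase parts had medians near 0. The 39 tested TRIM genes had a median log2 ratio of -0.02, with 9 intervals below 0 and 6 above, and the 48 tested F-box genes one of -0.08, with 16 below and 10 above. TRIM63, the muscle ligase MuRF1, had 2030 and 2308 counts and a ratio of 0.37 [0.28, 0.46], in the opposite direction to the 5 muscle Kelch members. With total counts both family medians lay above 0, at 0.12 and 0.07, and so did the median of all tested genes, at 0.13. Of 40 TRIM genes tested then, 4 intervals lay below 0 and 13 above, and of 48 F-box genes 8 lay below and 15 above. The same share of all tested genes was not computed for total counts.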
